A study of Mus musculus with 6 samples.

Results

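Batf, Batf3, Irf4 and Irf8 encode 4 transcription factors of CD8 T cells that pair with each other on DNA, and they were taken by symbol from a table of 49671 genes. All 4 were found and all 4 passed the filter on low counts that left 12242 genes for testing. RNA was sequenced from 6 libraries of OT-I cells, mouse CD8 T cells that carry a transgenic receptor for the ovalbumin peptide SIINFEKL. The labels call 3 libraries CD73 KO and 3 WT, CD73 being the surface enzyme encoded by Nt5e that makes adenosine from AMP. Cells of both genotypes were spleen CD8 T cells kept with IL-7 and IL-15 at 5 ng/mL each and replated after 48 hours. They were given 10 ng/mL of peptide daily for 5 days. This repeated stimulation is used to drive T cells towards exhaustion in culture, and every library received it, so no unstimulated cells stand beside them. Live cells were sorted before RNA extraction. The labels give neither the age nor the sex of the mice nor the way the knockout was made, and do not say whether libraries of a genotype came from separate mice, and p-values here therefore measure the spread of the libraries, which may be technical.

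BATF and BATF3 are short leucine-zipper proteins of the AP-1 family. They lack an activation domain of their own and bind DNA as pairs with JUN proteins. IRF4 and IRF8 are interferon regulatory factors that bind DNA weakly alone and join a BATF-JUN pair at composite AP-1 and IRF elements. In CD8 T cells, receptor signal strength sets how much IRF4 is made, BATF and IRF4 together support effector expansion, and both have been tied to exhaustion under lasting antigen. BATF3 and IRF8 are best known for the development of cross-presenting dendritic cells, and in T cells BATF3 has been linked to survival and memory.

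The libraries held 6934150 to 19382950 counts. The WT libraries were the shallower on the whole, and 1 count is worth 0.0516 to 0.144 CPM, a unit that corrects counts for library size. Levels below carry TMM factors as well, and the interval of a single library is an exact 95% Poisson interval, which covers counting error only. The check of the targeted gene was not clean. In CD73 KO replicates 1, 2 and 3 Nt5e stood at 3.67, 8.45 and 8.47 CPM, against 22.6, 5.22 and 37.4 CPM in the same WT replicates (log2 fold change -1.67 ± 0.72, SE; adjusted p = 0.534 by edgeR's quasi-likelihood test). For Nt5e, the library labelled WT replicate 2 therefore lies within the range of CD73 KO. The fold changes, ratios and mean RPKM levels of the 4 factors are also given without that library. The first principal component of log2 CPM held 33.9% of the variance and placed WT replicate 3 among the CD73 KO libraries. WT replicates 1 and 2 lay together at its other end, at 24.9 and 26.8. They were also the most alike pair of libraries over all tested genes (correlation of log2 CPM 0.990), so WT replicate 2 stood with WT replicate 1 there. The second component held 28.2%, and CD73 KO replicate 1 lay at its upper end, apart from the other 5 libraries.

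The 250 bases before each RefSeq start site are shown so that the 4 promoters can be compared letter by letter. They are from RefSeq on GRCm38.p6, all on the plus strand, at chr12:85686470-85686719 for Batf, chr1:191098164-191098413 for Batf3, chr13:30748983-30749232 for Irf4 and chr8:120736108-120736357 for Irf8. For Irf8, which has 2 entries, the one that meets the GENCODE gene start was taken. The Batf3 window lies wholly inside the GENCODE gene, which starts at 191097847, ahead of the RefSeq start at 191098414. The GENCODE starts of Batf (85686669) and Irf4 (30749226) lie nearer to their RefSeq starts, 85686720 and 30749233. Capitals mark every match, on either strand, to the motifs described after them.
Batf promoter: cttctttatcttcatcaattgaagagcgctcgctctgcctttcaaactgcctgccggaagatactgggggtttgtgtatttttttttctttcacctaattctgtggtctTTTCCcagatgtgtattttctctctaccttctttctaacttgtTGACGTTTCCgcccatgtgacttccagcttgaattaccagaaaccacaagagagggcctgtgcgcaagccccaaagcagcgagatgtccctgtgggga
Batf3 promoter: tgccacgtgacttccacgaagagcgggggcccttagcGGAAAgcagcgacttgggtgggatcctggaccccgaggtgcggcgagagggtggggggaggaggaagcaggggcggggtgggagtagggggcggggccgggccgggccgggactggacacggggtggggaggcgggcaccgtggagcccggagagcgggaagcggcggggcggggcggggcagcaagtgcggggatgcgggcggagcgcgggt
Irf4 promoter: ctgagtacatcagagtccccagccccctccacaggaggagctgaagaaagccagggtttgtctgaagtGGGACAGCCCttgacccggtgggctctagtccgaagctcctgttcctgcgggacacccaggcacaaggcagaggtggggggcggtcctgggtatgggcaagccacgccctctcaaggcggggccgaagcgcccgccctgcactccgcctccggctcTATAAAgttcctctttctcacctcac
Irf8 promoter: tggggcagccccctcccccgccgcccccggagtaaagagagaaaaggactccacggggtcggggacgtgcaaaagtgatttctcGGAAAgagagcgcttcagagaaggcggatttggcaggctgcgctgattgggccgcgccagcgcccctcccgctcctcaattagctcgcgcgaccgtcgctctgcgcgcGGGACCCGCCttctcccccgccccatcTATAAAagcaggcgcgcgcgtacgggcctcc

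The windows differ widely in base composition. G and C make up 46.4% of the Batf window, with 7 CG pairs, and 76.0% of the Batf3 window, with 27 CG pairs. They make up 63.6% of the Irf4 window, with 11 CG pairs, and 67.2% of the Irf8 window, with 29 CG pairs. The medians over 32851 promoter windows of the same length were 52.4% and 6.0 CG pairs. The letters searched were TGANTCA for an AP-1 site, GAAA repeated after any 2 bases for the core of an interferon response element, GGAA and GAAA with any 2 bases between for an ETS and IRF composite, TGACGTCA for the cAMP response element and TGACG for its first letters, which the full element contains. GGGA and CC with any 4 bases between were searched for a kappa-B core, with GGAAA for an NFAT core, which can lie within the ETS and IRF composite, and TATAAA for a TATA box, the last chosen after the sequences were seen. Irf4 and Irf8 each hold a TATA box, at -26 to -21 and -31 to -26 from the start, which 12.4% of all windows have and neither Batf nor Batf3 has. They also each hold a kappa-B core, GGGACAGCCC at -182 to -173 in Irf4 and GGGACCCGCC at -58 to -49 in Irf8, as 17.6% of windows do. In Batf, TGACG at -98 to -94 runs straight into an NFAT core on the other strand at -93 to -89. The letters TGACG occur in 17.8% of windows. An NFAT core, present in 55.6% of windows, was found in Batf, Batf3 and Irf8. None of the 4 windows holds the letters of the AP-1 site (6.75% of windows), the interferon element core (2.98%), the ETS and IRF composite (2.3%) or the full cAMP element (1.55%). These are matches of letters only.

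Batf, the AP-1 factor that pairs with IRF4 in activated T cells, was nearly the same in every library. Batf (ENSMUSG00000034266, chromosome 12, 85686669 to 85709087, mm10) had 567, 463 and 331 counts in CD73 KO replicates 1, 2 and 3, which is 30.2, 30.6 and 31.9 CPM. The WT libraries had 401, 315 and 226 counts, or 31.2, 33.6 and 32.2 CPM. All 6 libraries lay within 1.11-fold of each other, and their counting intervals share the range from 29.9 to 32.8 CPM. The mean of the CD73 KO group was 30.9 ± 0.889 CPM and that of the WT group 32.3 ± 1.19 CPM (SD, n = 3 each). The log2 fold change, CD73 KO over WT, was -0.07 ± 0.12 (SE; adjusted p = 0.882 by edgeR's quasi-likelihood test), with a 95% interval for the level in CD73 KO of 0.796 to 1.15 times that in WT. Without WT replicate 2 it was -0.04. Across the 6 libraries the SD of log2 CPM was 0.06 for Batf, against a median of 0.18 for 2438 tested genes within 1.5-fold of its mean level, of which 0.82% had a smaller SD. The counting interval of WT replicate 3 alone, 28.1 to 36.7 CPM, was wider than the range of all 6 libraries. An evenness finer than counting error therefore cannot be read at these depths. With counts thinned at random to the smallest library total, Batf had 180 to 237 counts and a log2 fold change of -0.14.

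Batf3, the close relative of Batf, showed the widest spread of the 4 and the lowest level. Batf3 (ENSMUSG00000026630, chromosome 1, 191097847 to 191108945) had 63, 82 and 79 counts in CD73 KO and 89, 142 and 132 counts in WT. Its level was 3.35 CPM (95% interval 2.58 to 4.29), 5.41 CPM (4.31 to 6.72) and 7.61 CPM (6.02 to 9.48) in CD73 KO replicates 1, 2 and 3. In WT replicates 1, 2 and 3 it was 6.92 CPM (5.56 to 8.52), 15.1 CPM (12.7 to 17.8) and 18.8 CPM (15.7 to 22.3). WT replicates 2 and 3 lay above every CD73 KO library, while WT replicate 1 lay just below CD73 KO replicate 3, so the groups overlapped. The CD73 KO mean was 5.46 ± 2.13 CPM and the WT mean 13.6 ± 6.08 CPM (SD, n = 3 each).

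For Batf3 the log2 fold change was -1.32 ± 0.40 (SE), or 0.399 times the WT level with a 95% interval of 0.211 to 0.755 for this gene alone. It did not pass over all genes (unadjusted p = 0.0100, adjusted p = 0.379 by edgeR's quasi-likelihood test). Over 12242 tested genes, 3.89% were lower in CD73 KO at an unadjusted p under 0.05 and 0.449% had a log2 fold change of -1 or lower. DESeq2 did call Batf3 (adjusted p = 0.0348), among 98 genes or 0.786% of those it tested, and so did edgeR without a filter on low counts (adjusted p = 1.59e-05), a fit that called 1.4% of genes. The DESeq2 call was lost without WT replicate 2 (adjusted p = 0.567), WT replicate 3 (0.286), CD73 KO replicate 1 (0.283) or CD73 KO replicate 2 (0.215), and it held without WT replicate 1 (0.00218) or CD73 KO replicate 3 (0.0103). In edgeR, leaving out single libraries gave log2 fold changes from -1.66 (without WT replicate 1) to -1.03 (without WT replicate 3), and adjusted p of 0.210 or more. Without WT replicate 2 the value was -1.24 (adjusted p = 0.999). In these bulk samples, fewer cells with Batf3 transcripts and less Batf3 RNA per cell cannot be told apart.

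**Figure D1:**
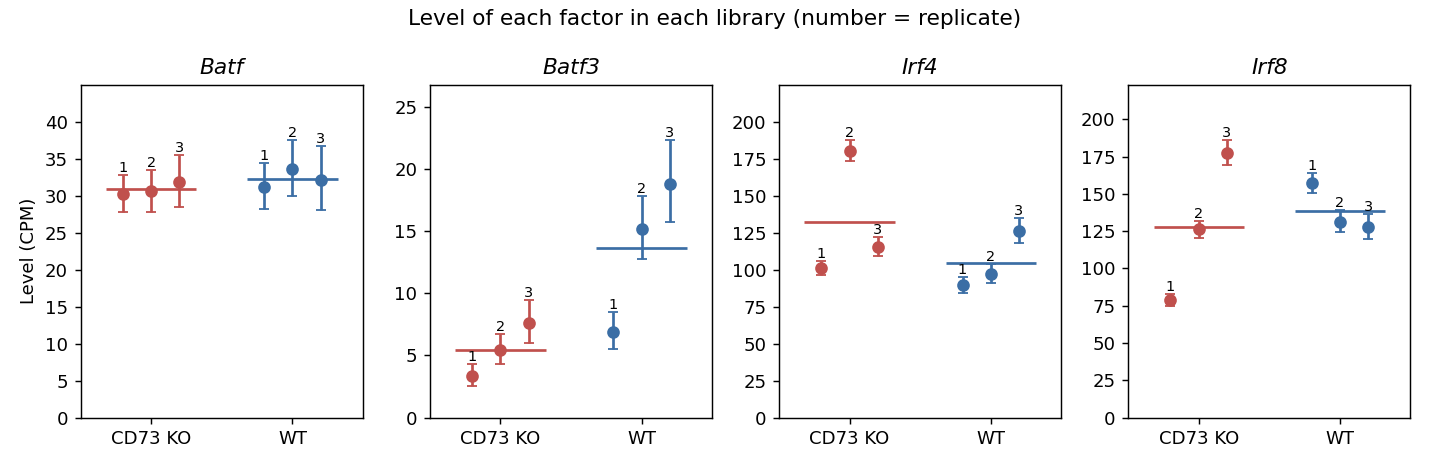
Level in CPM (linear axis from 0, scaled per gene) of Batf, Batf3, Irf4 and Irf8 in each library, numbered by replicate, with exact 95% Poisson intervals as bars and group means as horizontal lines. Batf stays between 30.2 and 33.6 CPM throughout, whereas Batf3 runs from 3.35 to 18.8 CPM, Irf4 is highest in CD73 KO replicate 2 and Irf8 lowest in CD73 KO replicate 1.

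Irf4, the factor whose amount follows receptor signal strength, did not differ between genotypes beyond the spread of the libraries. Irf4 (ENSMUSG00000021356, chromosome 13, 30749226 to 30766976) had 886 to 2735 counts. Its level was 101, 181 and 116 CPM in CD73 KO replicates 1, 2 and 3 and 89.7, 97.2 and 126 CPM in the WT libraries. CD73 KO replicate 2 stood above all others, and the remaining 5 libraries overlapped. With 132 ± 42.3 CPM as the CD73 KO mean and 104 ± 19.2 CPM as the WT mean (SD, n = 3 each), the log2 fold change was 0.35 ± 0.22 (SE; adjusted p = 0.646 by edgeR's quasi-likelihood test). The 95% interval ran from 0.897 to 1.80 times the WT level. Without CD73 KO replicate 2 the log2 fold change was 0.06 (adjusted p = 0.931), and without WT replicate 2 it was 0.29. CD73 KO replicate 2 held the highest value of 18.8% of all tested genes.

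Irf8, a factor shared by B cells, dendritic cells and activated CD8 T cells, was also even between the group means but not between libraries. Irf8 (ENSMUSG00000041515, chromosome 8, 120736358 to 120756694) had 898 to 2021 counts. Its level was 78.6, 126 and 178 CPM in CD73 KO replicates 1, 2 and 3. It was 157, 131 and 128 CPM in the WT libraries, which lie inside the range of CD73 KO. The CD73 KO libraries spanned 2.26-fold and the WT libraries 1.23-fold. The means were 127 ± 49.5 CPM and 139 ± 16.0 CPM (SD, n = 3 each), with a log2 fold change of -0.13 ± 0.27 (SE; adjusted p = 0.898 by edgeR's quasi-likelihood test) and a 95% interval of 0.595 to 1.41 times the WT level. The direction rests on single libraries, since the log2 fold change was 0.12 without CD73 KO replicate 1, -0.44 without CD73 KO replicate 3, -0.03 without WT replicate 1 and -0.17 without WT replicate 2. CD73 KO replicate 1, where Irf8 was lowest, also held 296 CPM of Nfkbia, an inflammatory feedback gene read after the values were seen, against 63.0 to 96.4 CPM in the other 5 libraries, and the part of this difference in the Irf8 value was not tested. Gm20388, a gene model that spans the Irf8 locus on the same strand, shares 0 exon bases with Irf8 and had 0 counts in every library.

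Of the 4 factors, 0 passed the adjusted threshold of 0.05 by edgeR, as 0.0572% of all tested genes did. Only Batf3 had an unadjusted p under 0.05, against 9.64% of tested genes in either direction, and only Batf3 was called by DESeq2 with all 6 libraries. None of the 4 had groups without overlap, which 15.2% of tested genes had. The SD of log2 CPM over the 6 libraries was 0.93 for Batf3, 0.36 for Irf4 and 0.40 for Irf8. Among tested genes within 1.5-fold of each level, 97.9%, 95.5% and 97.4% had a smaller SD. Batf lay at the other end of that scale, with its libraries closer together than the counting interval of a single library is wide.

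**Figure D2:**
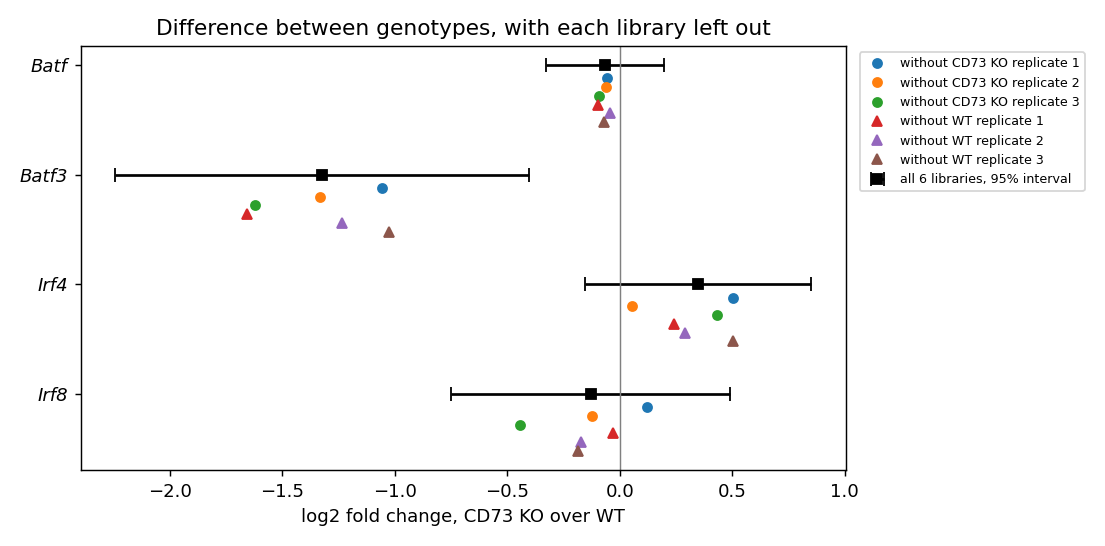
Log2 fold change, CD73 KO over WT, of each factor with all 6 libraries (squares, with 95% intervals) and with 1 library left out at a time (circles for CD73 KO, triangles for WT). Batf3 stays at or below -1.03, Batf stays between -0.09 and -0.04, Irf4 falls to 0.06 without CD73 KO replicate 2, and Irf8 crosses 0 without CD73 KO replicate 1.

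Levels can be set side by side between genes only per length. On the RPKM scale (CPM per kilobase of all annotated exons), the mean over 6 libraries was 24.1 ± 6.77 for Irf4, 22.5 ± 0.872 for Batf, 18.9 ± 4.74 for Irf8 and 5.97 ± 3.79 for Batf3 (SD, n = 6 libraries of both genotypes). Batf3 was lowest of the 4 in each of the 6 libraries. The first 3 do not differ beyond their spread, and each of them was the highest in 2 of the 6 libraries. Without WT replicate 2 the RPKM means were 25.01 for Irf4, 22.2 for Batf, 18.9 for Irf8 and 5.27 for Batf3. The order depends on the length taken. The exons of Irf8 add up to 7055 bases, but its longest coding transcript has 2847. With the longest coding transcripts the RPKM means were 46.8 for Irf8, 33.1 for Batf, 24.9 for Irf4 and 11.9 for Batf3. Which transcripts the cells used cannot be read from counts per gene.

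The balance within each family was compared as a ratio of counts within a library, which does not depend on how libraries are scaled. Batf counts were 9, 5.65 and 4.19 times those of Batf3 in CD73 KO replicates 1, 2 and 3. In the WT libraries they were 4.51, 2.22 and 1.71 times. The highest WT ratio lay between the lowest pair of CD73 KO ratios. On the log2 scale the means were 2.57 ± 0.55 and 1.36 ± 0.72 (SD, n = 3 each), a difference of 1.21 (exact permutation test, two-sided, p = 0.2, adjusted p = 0.3 over 2 ratios). Irf4 counts were 1.29, 1.43 and 0.651 times those of Irf8 in CD73 KO and 0.571, 0.740 and 0.987 times in WT. The log2 ratio of Irf4 to Irf8 was 0.09 ± 0.62 in CD73 KO and -0.42 ± 0.40 in WT (SD, n = 3 each), a difference of 0.51 (exact permutation test, two-sided, p = 0.3, adjusted p = 0.3). Neither ratio passed, and with 3 libraries against 3 this test cannot go below 0.1. Without WT replicate 2 the differences were 1.10 and 0.50.

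**Figure D3:**
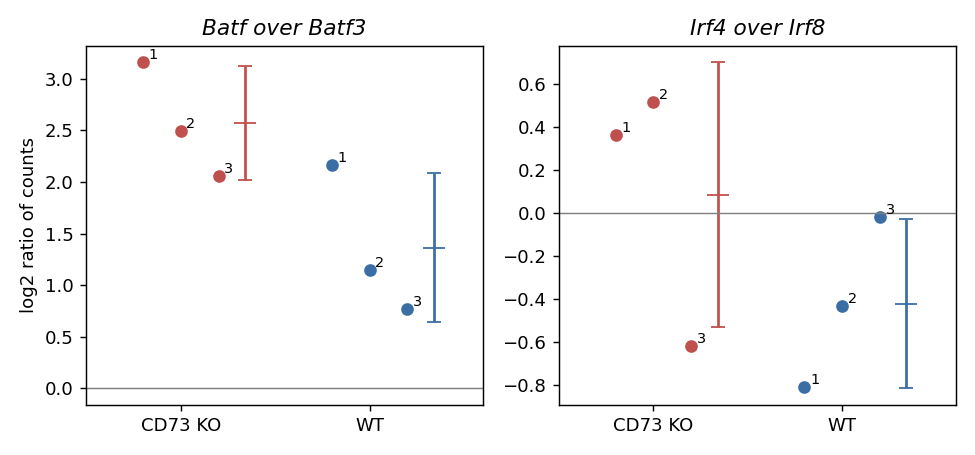
Log2 ratio of counts within each library for Batf over Batf3 and Irf4 over Irf8, numbered by replicate, with the group mean and SD beside the points. The Batf to Batf3 ratio is highest in CD73 KO replicate 1 and lowest in WT replicate 3, and the groups overlap in both panels.

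Because Batf3 and Irf8 mark dendritic cells and Irf4 and Irf8 are made by B cells and macrophages, markers of those cells were read in the same libraries. Of the 8 conventional dendritic cell markers, Xcr1 and Clec9a had no count in any of the 6 libraries, where 3 counts would be 0.155 to 0.433 CPM. Cadm1, Flt3 and Tlr3 had 0 to 2 counts, Wdfy4 0 to 5, Itgax 3 to 34 and Zbtb46 4 to 23. The list summed to 1.35 to 2.50 CPM in the CD73 KO group and to 1.48 to 3.62 CPM in the WT group. Of the 5 B cell markers reported, Ms4a1 and Pax5 were at 0, Cd79a had 0 to 2 counts and Ebf1 2 to 5, while Cd79b had 4 to 44, and the list summed to 1.83 to 2.71 CPM against 1.17 to 1.99 CPM in WT. Of the 6 macrophage and monocyte markers, Lyz2, Csf1r, C1qa and Fcgr1 were at 0, Adgre1 had 0 or 1 count and Cd14 5 to 10, and the list summed to 0.479 to 0.660 CPM against 0.712 to 0.852 CPM in WT. Siglech, Ccr9 and Klk1 of the plasmacytoid dendritic cell list were at 0, whereas its Bst2 and Tcf4, which T cells also make, had 811 to 2134 and 54 to 187 counts, and the list summed to 116 to 123 CPM against 69.8 to 126 CPM in WT. The 8 CD8 T cell markers, Cd8a, Cd3e and Trac among them, summed to 4579 to 4966 CPM against 4321 to 4501 CPM in WT. Of the 3 CD4 T cell markers, Cd4 had 0 to 5 counts and Foxp3 0 to 2, while Zbtb7b had 173 to 425, and the list summed to 22.8 to 26.5 CPM against 25.5 to 32.9 CPM in WT. The NK cell list of 3 markers summed to 1.54 to 3.83 CPM against 1.14 to 5.11 CPM.

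Around these factors, 5 related gene lists were read from the same fit, each by its counts and its median log2 fold change, beside a median of 0.01 for all tested genes. No list gene passed the adjusted threshold by edgeR. Of the other AP-1 and leucine-zipper factors, 15 of 17 were tested, 8 lay above 0 and 7 below, and the median was 0.19. The sign of this median rests on CD73 KO replicate 1, without which it was -0.07, and limma-voom gave 0.07. None had an unadjusted p under 0.05, against 9.64% of all tested genes, and DESeq2 called 0, against 0.786%. Bach2, a repressor that competes with AP-1 factors for their sites, was at 109 ± 5.21 CPM against 88.0 ± 16.5 CPM in WT (0.30 ± 0.14, adjusted p = 0.520, and 0.16 without WT replicate 3). Jun, the partner that BATF proteins need to bind DNA, had 0.46 ± 0.37 (adjusted p = 0.716), from 0.24 without WT replicate 1 or 2 and 0.26 without CD73 KO replicate 3 to 0.97 without WT replicate 3. Jdp2, a repressor of AP-1 activity, had 0.39 ± 0.21 (adjusted p = 0.583), and Jund, the most abundant of the list, -0.14 ± 0.19 (adjusted p = 0.839), a value that ran from -0.37 without CD73 KO replicate 3 to 0.022 without CD73 KO replicate 2. Batf2 had 0 counts and Fosl1 3 to 14.

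The list of other IRF genes also holds 3 genes for IRF2-binding proteins. All 10 were tested, 7 lay above 0 and the median was 0.43, which came to 0.11 when CD73 KO replicate 2 was left out and to 0.24 when replicate 1 of that genotype was. At an unadjusted p under 0.05, 4 were higher and 0 lower, against 5.75% and 3.89% of all tested genes, and DESeq2 called 2, against 0.786%. Irf7, which amplifies type I interferon production, averaged 102 ± 17.9 CPM against 42.1 ± 18.2 CPM in WT (1.30 ± 0.31, adjusted p = 0.328). Irf9, the DNA-binding part of the interferon-activated ISGF3 complex, averaged 102 ± 11.1 against 62.4 ± 10.6 CPM (0.71 ± 0.14, adjusted p = 0.187). Irf2bp2, which encodes an IRF2-binding corepressor, had 0.59 ± 0.18 (adjusted p = 0.368), or 0.36 without CD73 KO replicate 1. Irf1, an interferon-induced activator and the most abundant of the list, had 0.81 ± 0.45 (adjusted p = 0.613), with 333 CPM in CD73 KO replicate 1 and 101 to 140 CPM in the other 5 libraries, and its log2 fold change was 0.13 without that library.

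**Figure D4:**
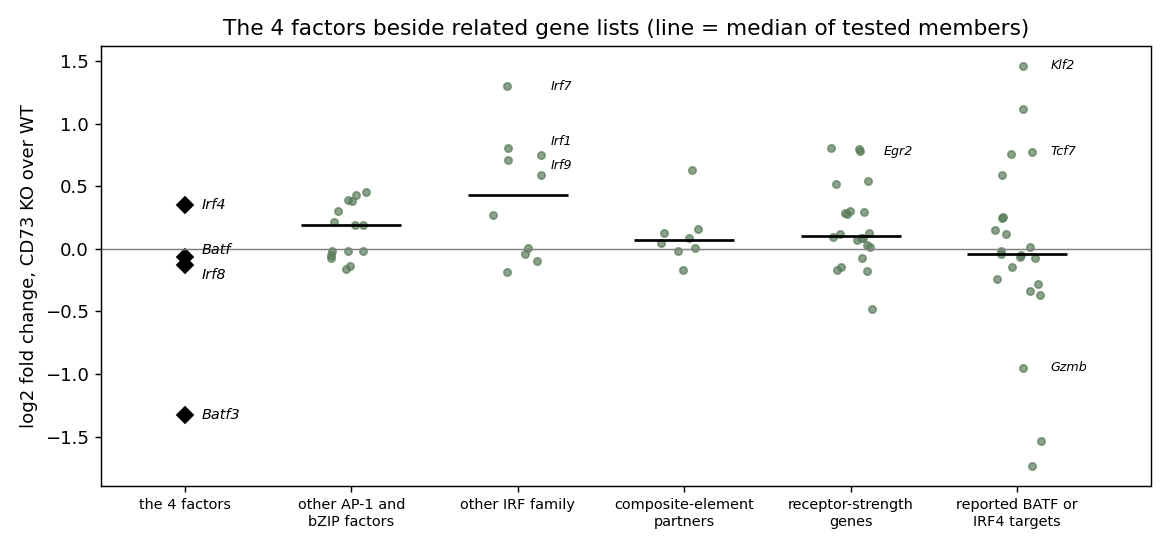
Log2 fold change, CD73 KO over WT, of the 4 factors (diamonds) and of the tested genes of 5 related lists (circles, with the list median as a line). The median of the other IRF genes is 0.43, or 0.11 without CD73 KO replicate 2, while Irf4 and Irf8 themselves lie at 0.35 and -0.13.

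Among the factors that share composite elements or lineage programmes with IRF4 and IRF8, 8 of 10 were tested. The median was 0.07 (0.01 without WT replicate 3, 0.03 without WT replicate 2 or CD73 KO replicate 2). Of these 8, 0 had an unadjusted p under 0.05, against 9.64% of all tested genes, and DESeq2 called 0, against 0.786%. Spi1, which encodes the ETS partner PU.1, had 0 counts and Spib 0 to 2. Ikzf1, a zinc finger factor of lymphocytes, had 0.16 ± 0.10, Tcf3, an E protein, -0.17 ± 0.11 (adjusted p = 0.638 for both), and Bcl6, a repressor of Prdm1, 0.63 ± 0.57 at 4.78 ± 2.36 and 3.25 ± 2.62 CPM (adjusted p = 0.746). These values were 0.09 and -0.10 for Ikzf1 and Tcf3 without CD73 KO replicate 2, and for Bcl6, which moved by over 1.5 times without any of 5 of the libraries, they ran from 0.17 without CD73 KO replicate 2 to 1.46 without WT replicate 3. Genes that feed or report receptor signalling had a median of 0.11, with 17 of 22 above 0, and of 0.03 without CD73 KO replicate 1. At an unadjusted p under 0.05, 4 were higher and 1 lower, against 5.75% and 3.89% of all tested genes, and DESeq2 called 0, against 0.786%. Egr2, an immediate early gene downstream of NFAT, averaged 14.5 ± 1.36 CPM against 8.48 ± 1.63 CPM in WT (0.78 ± 0.19, adjusted p = 0.287). Myc had 0.54 ± 0.18 (adjusted p = 0.418), from 0.39 without WT replicate 1 to 0.80 without WT replicate 3. Nr4a2 had 0.52 ± 0.19 (adjusted p = 0.446), from 0.38 without WT replicate 1 to 0.76 without WT replicate 3. Nfkb1 had -0.14 ± 0.10 (adjusted p = 0.670), or -0.09 without CD73 KO replicate 3.

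Genes reported as BATF or IRF4 targets in T cells had no common direction. Of 25, 23 were tested, with 10 above 0, 13 below and a median of -0.04, and Il10 and Il21 had 0 counts. Without any 1 library except WT replicate 1 this median turned to between 0.00 and 0.02. At an unadjusted p under 0.05, 3 were higher and 3 lower, against 5.75% and 3.89% of all tested genes, and DESeq2 called 3, against 0.786%. Gzmb, the granule protease granzyme B, averaged 1480 ± 68.9 CPM against 2857 ± 1019 CPM in WT (-0.95 ± 0.22, adjusted p = 0.287), or -0.62 without WT replicate 2, which stood at 4026 CPM. Tcf7, a factor of stem-like T cells, averaged 326 ± 47.4 against 191 ± 50.7 CPM (0.77 ± 0.20, adjusted p = 0.319). Klf2, a quiescence factor, averaged 16.4 ± 9.36 against 6.07 ± 0.879 CPM (1.46 ± 0.37, adjusted p = 0.326), or 0.87 without CD73 KO replicate 1, which stood at 27.2 CPM. These adjusted p-values, as those of the other list genes above, are from edgeR's quasi-likelihood test over all genes, and each ± beside a fold change is an SE and beside a CPM level an SD over 3 libraries.

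For each factor the 3 genes were taken whose log2 CPM, centred on the mean of the 6 libraries, differed least from its own by root mean square, out of 9125 protein-coding genes of at least 5 CPM. For Irf4 these were Arl14ep, Fam208a and Zfp160, at distances of 0.04 to 0.06, while Irf4 itself varied by 0.33 around its mean. Arl14ep stood at 138 CPM in CD73 KO replicate 2 and at 71.1 to 95.2 CPM elsewhere. For Irf8 they were Gdpd5, Suox and Fam118b, at 0.10 to 0.11 against 0.37 for Irf8 itself, and all 3 were lowest in CD73 KO replicate 1. For Batf3 the nearest were Mid1, Dmwd and Arhgdig, at 0.43 to 0.48 against 0.85 for Batf3 itself. This distance also counts the size of the changes, so a gene with the same pattern but smaller changes would lie far from Batf3. Mid1 ran from 4.36 to 6.45 CPM in CD73 KO and from 8.48 to 12.1 CPM in WT. For Batf they were Tinf2, Pcbp2 and Mrps9, at 0.02 to 0.03 against 0.05, genes that also hardly varied. The likeness is over 6 libraries, which share their depth and their handling. Because the genes were picked by these same values, the high, low or even libraries they share with each factor follow from the choice.

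**Figure D5:**
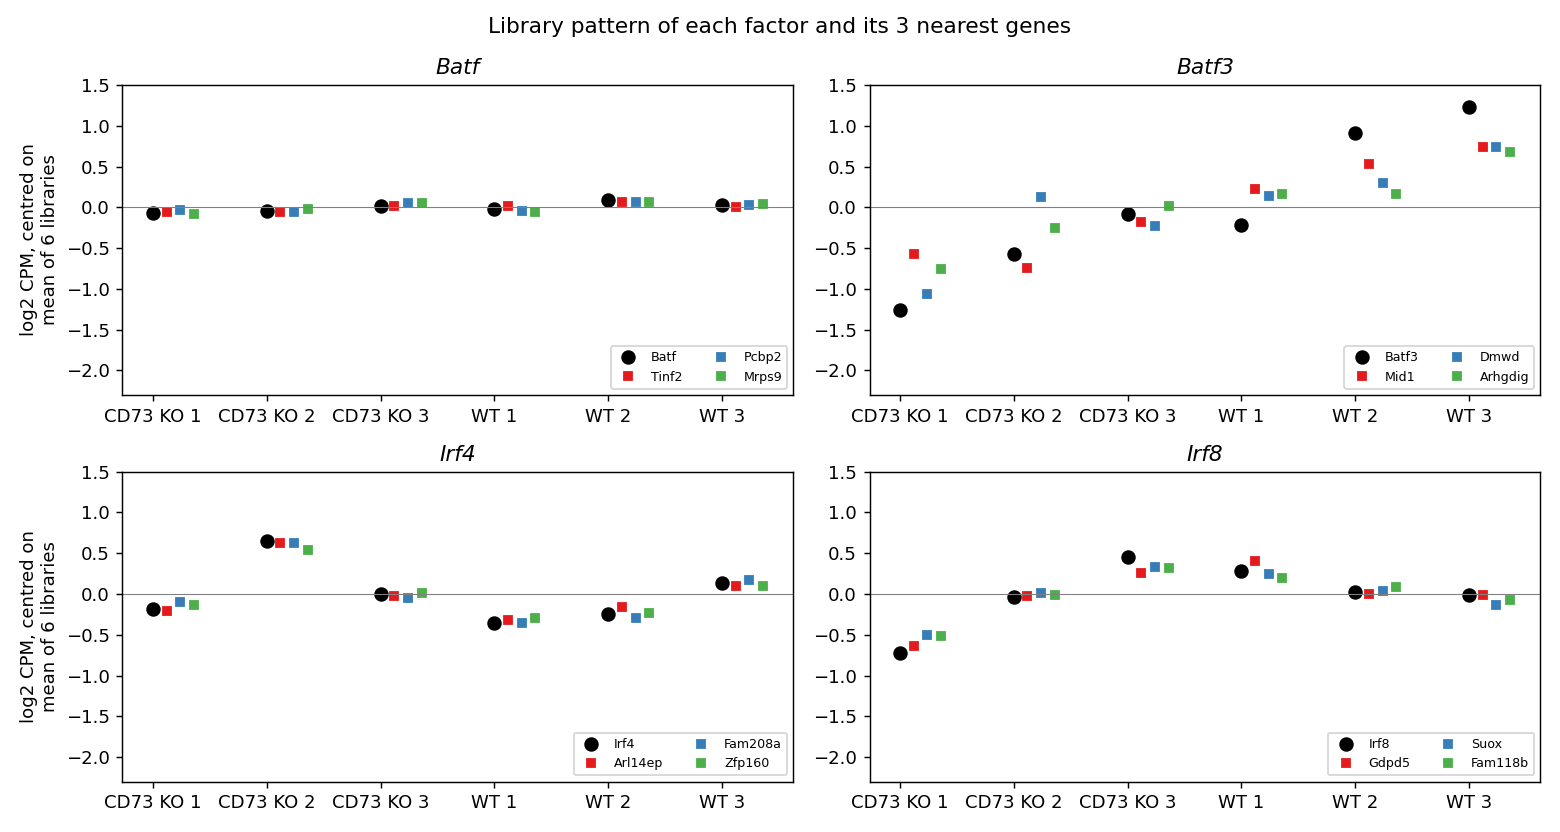
Log2 CPM centred on the mean of the 6 libraries for each factor (black) and its 3 nearest genes (coloured squares, set to the right for legibility). The points of Irf4 and its nearest genes nearly coincide, with a high value in CD73 KO replicate 2, while Batf3 lies farther from the mean than its nearest genes in CD73 KO replicate 1 and in WT replicates 2 and 3.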

How the data were processed

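Raw counts per gene were deposited for 6 libraries. Per the submitters' processing notes they were made with fastp, HISAT2 and featureCounts on mm10, and per the labels' protocols from a stranded kit. Which versions, annotation release and strand setting were used is not given in the sources at hand, so reads of a gene and an antisense partner cannot be told apart. In the GENCODE annotation the only gene that overlaps any of the factors is Gm20388, on the same strand as Irf8. A symbol was found for 49326 of 49671 identifiers. Totals ran from 6934150 to 19382950 counts, with a detection floor of 3 counts.

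Genes were kept with filterByExpr (minimum count 10, minimum total count 15) and compared with edgeR 4.0.16 in R 4.3.3 (quasi-likelihood F-test, TMM factors, robust legacy fit, Benjamini-Hochberg over 12242 genes, threshold 0.05). The standard error is the log2 fold change divided by the square root of F. Within-library ratios used a prior of 0.5 counts. Exon lengths and gene positions are from GENCODE M21 on GRCm38. Alternatives were other size factors, filters and fits, the replicate number as a block, each library left out, thinning to 6934150 counts, DESeq2 1.42.0, limma-voom (limma 3.58.1), a prior of 2 counts, and, chosen after seeing the data, the longest coding transcript as length, the RPKM means without WT replicate 2 and DESeq2 without each library. The members and lists were chosen with earlier results of these data known. Named genes were the 4 factors, Nt5e, the 3 genes of smallest p and the most abundant gene of each list, and the 3 genes nearest to each factor. Protein sequences were not used here. A B cell marker of the fixed list is not reported here.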

Additional observations from a re-analysis of the deposited data

How the results depend on the processing

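With 16 alternatives each, log2 fold changes lay from -0.14 to -0.04 for Batf, from -1.66 to -1.03 for Batf3, from 0.06 to 0.50 for Irf4 and from -0.44 to 0.12 for Irf8, and over 9 alternatives the differences of the ratios ran from 0.91 to 1.61 (Batf to Batf3) and from 0.29 to 0.86 (Irf4 to Irf8). Batf3 passed with DESeq2 (-1.33, adjusted p = 0.0348) and with edgeR without a filter on low counts (-1.32, adjusted p = 1.59e-05), and its adjusted p otherwise ran from 0.121 to 0.999. The DESeq2 call was lost without any of 4 of the 6 libraries, at log2 fold changes of -1.33, -1.24, -1.06 and -1.03. Irf8 turned to 0.12 without CD73 KO replicate 1, and the log2 fold change of Jund lay between -0.37 and 0.022 when single libraries were left out. Leaving out single libraries moved the count of changed genes from 7 to between 4 and 8, with 4 without CD73 KO replicate 2 or WT replicate 2. DESeq2 called 98 genes and edgeR without a filter 298. In that last fit 3 of 10 other IRF genes, 4 of 22 receptor genes and 4 of 23 reported targets were called, against 1.4% of the genes it tested. With DESeq2 2 of 10 other IRF genes and 3 of 23 reported targets were called, against 0.786%. The cause of the higher counts was not tested. With lengths of the longest coding transcripts the RPKM means of Batf, Batf3 and Irf8 were 33.1, 11.9 and 46.8. The labels do not say whether the shared replicate numbers pair the libraries. Deviations of same-numbered libraries correlated at 0.15, -0.17 and 0.01 across genes, and those of differently numbered libraries at -0.32 to 0.36. With 3 libraries of each genotype, centred on their own mean, these values cannot decide it. With the replicate block, values were -0.07 for Batf, -1.28 for Batf3 (adjusted p = 0.121), 0.31 for Irf4 and -0.20 for Irf8, and 5 genes were called. Batf3, at 63 to 142 counts, had the fewest counts of the 4 members, yet its libraries differed beyond their counting intervals. Thinning to the smallest total left its log2 fold change at -1.39.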

Other observations

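Several genes that respond to stress or inflammatory signals were at their highest in CD73 KO replicate 1, the library with the lowest Irf8 and Batf3. This was read after the values were seen. Of the other AP-1 and leucine-zipper factors, 6 of 15 (40.0%) were highest there, Atf3, Bach1, Fosl2, Junb, Maff and Mafk, as were 9 of 22 receptor genes (40.9%), 4 of 10 other IRF genes (40.0%), 6 of 23 reported targets (26.1%) and 1 of 8 composite-element partners (12.5%), against 21.8% of all tested genes. Atf3, a stress-induced factor, was at 26.0 CPM in that library and at 9.90 and 8.76 CPM in CD73 KO replicates 2 and 3, while the WT libraries had 10.1, 21.6 and 16.2 CPM, so WT replicate 2 came near it. Nfkbia, which encodes an inhibitor of NF-kappa-B and is itself an NF-kappa-B target, was at 296 CPM there and at 63.0 to 96.4 CPM in the other 5 libraries. Several other immediate early genes of the same lists peaked elsewhere. Jun and Nr4a1 were highest in CD73 KO replicate 3, Egr1 in CD73 KO replicate 2, and Fos and Fosb in WT replicate 3. Fos was at 16.0 CPM in CD73 KO replicate 1 and at 32.5 CPM in WT replicate 3. The part of the pattern of CD73 KO replicate 1 in the values of Irf8 and Batf3 was not tested.

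Tbx21, which encodes T-bet, was lowest in the same library, at 19.0 CPM against 44.7 and 50.2 CPM in CD73 KO replicates 2 and 3 and 29.6 to 42.6 CPM in WT. Eomes, its relative, was at 15.1, 1.39 and 6.74 CPM in CD73 KO and at 30.1, 34.5 and 2.56 CPM in WT, so WT replicate 3 stood with the CD73 KO libraries (adjusted p = 0.675 by edgeR's quasi-likelihood test). Havcr2, which encodes TIM-3, showed the same split among WT libraries, at 22.8 and 49.5 CPM in WT replicates 1 and 2 and 7.97 CPM in WT replicate 3. Its level was 9.89, 7.92 and 6.26 CPM in CD73 KO (log2 fold change -1.73, adjusted p = 0.492 by edgeR's quasi-likelihood test). These 3 genes and the others above were named after their values were seen.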
